A study of Mus musculus with 6 samples.

Results

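The 6 mesothelial marker genes Upk1b, Upk3b, Msln, Lrrn4, Bnc1 and Muc16 were followed across 6 libraries of cultured mouse fibroblasts. All 6 are known to mark the mesothelium. They are 6 of 57180 gene identifiers in the count table. They were chosen as a set by counts in the 2 cardiac libraries, where some were higher and some lower with Ad-Cre and Muc16 had no reads. That difference is therefore given as a description, with no test. Polyadenylated RNA was read from cardiac, lung and tail tip fibroblasts in DMEM with 10% fetal bovine serum. Cells of each origin received an adenovirus with Cre recombinase (Ad-Cre, for which the labels name a GATA4 knockout) or with green fluorescent protein (Ad-GFP, the control), and were collected after 48 h. Each of the 6 groups (cardiac Ad-Cre, cardiac Ad-GFP, lung Ad-Cre, lung Ad-GFP, tail tip Ad-Cre and tail tip Ad-GFP) held 1 library. The labels give the genotype of all 6 as wild type and name no floxed allele, age, sex or strain, so the comparison has no replicate check within an origin and all directions between the viruses rest on the labels.

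The mesothelium is the single layer of flat epithelial cells that covers the heart, the lungs and the walls of the body cavities, and on the heart it is called the epicardium. Its cells carry epithelial keratins and surface glycoproteins, and can lose them as they turn into mesenchymal cells. Upk1b and Upk3b encode uroplakins, membrane proteins first known from the plaques of the bladder lining: Upk1b is a tetraspanin and Upk3b a protein with a single membrane span. Msln encodes mesothelin, a surface glycoprotein held by a lipid anchor, and Muc16 encodes the large mucin that mesothelin binds. Lrrn4 encodes a membrane protein with leucine-rich repeats. Bnc1 encodes basonuclin 1, a zinc finger protein of the nucleus.

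Upk3b and Lrrn4 differed in opposite directions between the 2 cardiac libraries, and their promoter windows are shown to place both genes side by side. Windows of 300 bases, from 250 before to 50 after the gene start, were available for 4 of the 6 members in the RefSeq sequences of GRCm38.p6 (Upk3b, Lrrn4, Bnc1 and Muc16). The Upk3b window lies at chr5:136038246-136038545 on the plus strand and the Lrrn4 window at chr2:132880813-132881112 on the minus strand. Capitals mark matches, on either strand, to a GATA motif or to a TEAD motif. The TEAD motif was spelled CATTCC. The GATA motif had 4 spellings: the first was AGATAA, another with a different last letter was AGATAG, and those that start with T instead were TGATAA for the one and also TGATAG for the other. No spelling of one motif overlapped a match of the other in the windows shown. The motif letters were chosen after the windows had been read.
Upk3b: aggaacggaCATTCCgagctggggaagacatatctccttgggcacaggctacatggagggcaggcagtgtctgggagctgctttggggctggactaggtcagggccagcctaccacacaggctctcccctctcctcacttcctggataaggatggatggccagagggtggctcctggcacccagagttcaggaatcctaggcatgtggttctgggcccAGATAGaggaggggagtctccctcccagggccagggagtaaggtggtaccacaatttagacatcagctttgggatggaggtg
Lrrn4: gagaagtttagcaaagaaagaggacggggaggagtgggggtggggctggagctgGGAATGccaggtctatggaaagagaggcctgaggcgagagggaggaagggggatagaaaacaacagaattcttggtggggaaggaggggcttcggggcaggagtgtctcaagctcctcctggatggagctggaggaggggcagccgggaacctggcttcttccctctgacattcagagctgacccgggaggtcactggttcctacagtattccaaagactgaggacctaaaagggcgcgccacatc
Both windows held 1 TEAD match, which 14.7% of 32851 mouse promoter windows of this length hold. The Upk3b window also held 1 GATA match (AGATAG, starting at base 219 of the window), as 29.8% of the windows do, and these letters were not in the Lrrn4 window. Muc16 had 1 GATA match and Bnc1 had neither. A match is a description of letters and was not tested as a site.

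Total counts ran from 26170316 to 33779069 per library, and 3 reads, the limit that a count of 0 allows, correspond to between 0.0888 and 0.115 CPM (counts scaled to the library total). The 2 cardiac libraries had 22665 (Ad-Cre) and 23120 (Ad-GFP) genes with a read, fewer than the 25234 to 27267 of the other 4. Gata4, the gene named as the target, stood at 149 CPM in cardiac Ad-Cre and 147 CPM in cardiac Ad-GFP cells, and at 19.2 CPM in lung Ad-Cre and 14.7 CPM in lung Ad-GFP cells, so its RNA was not lower in the libraries labelled Ad-Cre. Tail tip cells held 2 reads of it with Ad-Cre and 1 with Ad-GFP. The deleted part of the gene is not given in the sources used here. These floors are over unscaled totals, while all other CPM values and the fold floors use totals scaled with TMM factors.

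The members did not share 1 pattern over the origins. Upk1b, Upk3b and Lrrn4 were read almost wholly in cardiac cells, Msln mainly in lung cells and Bnc1 mainly in tail tip cells, while Muc16 was close to absent throughout. Of the 6 members, 5 passed the filter on low counts, and Muc16 did not. The set was chosen for a difference that needs reads in a cardiac library, which Muc16 lacked, so the cardiac levels are given as a description.

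The uroplakin gene Upk1b (ENSMUSG00000049436, chromosome 16) had 1269 reads in cardiac Ad-Cre and 184 in cardiac Ad-GFP cells, 1 read in lung Ad-Cre and 0 in lung Ad-GFP cells, and 0 in both tail tip libraries. Pooled over both libraries of the origin it stood at 23.0 CPM in cardiac cells, at least 498-fold the floor of 3 counts over the tail tip pair. Upk3b (ENSMUSG00000042985, chromosome 5) had 878 reads in cardiac Ad-Cre and 95 in cardiac Ad-GFP cells, none in lung cells, and 0 in tail tip Ad-Cre and 2 in tail tip Ad-GFP cells. It was at least 282-fold higher in the cardiac pair than in the lung pair, with the floor of 3 counts over the lung pair. The highest count outside the heart was thus 2 reads for these genes.

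Lrrn4 (ENSMUSG00000043110, chromosome 2) had 288 reads in cardiac Ad-Cre and 1048 in cardiac Ad-GFP cells and 0 in each of the 4 lung and tail tip libraries. The cardiac pair was at least 387-fold above the floor of the lung pair and at least 458-fold above that of the tail tip pair. These counting intervals and floors cover counting error only, since reads without molecular identifiers are not independent molecules.

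Msln (ENSMUSG00000063011, chromosome 17) had its highest level in lung cells. It stood at 193 CPM (4948 reads) in lung Ad-Cre and 153 CPM (4462 reads) in lung Ad-GFP cells. Cardiac cells held 27.5 CPM with Ad-Cre and 6.42 CPM with Ad-GFP, and tail tip cells held 10 and 6 reads with Ad-Cre and Ad-GFP. Its level was highest in lung, then in cardiac and then in tail tip libraries. The lung pair was 697-fold higher than the tail tip pair (95% interval 429 to 1219 for counting error). In edgeR's quasi-likelihood test over all 18143 genes, Msln was higher in lung than in tail tip cells by 9.58 on the log2 scale (SE 0.58, adjusted p = 2.3e-05), in both libraries of the origin. The fit shares its virus term and its estimate of spread with the cardiac libraries on which the members were chosen. Of all genes tested, 50.6% were called in this comparison, 22.3% higher and 28.2% lower in lung.

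Bnc1 (ENSMUSG00000025105, chromosome 7) had its highest level in tail tip cells. It stood at 2.78 CPM in cardiac Ad-Cre and 1.63 CPM in cardiac Ad-GFP cells, at 1.09 CPM in lung Ad-Cre and 1.30 CPM in lung Ad-GFP cells, and at 8.39 CPM in tail tip Ad-Cre and 6.79 CPM in tail tip Ad-GFP cells. Bnc1 fell by 2.63 on the log2 scale in lung against tail tip cells (SE 0.40, edgeR adjusted p = 0.0014), where 28.2% of all tested genes were called lower. Both lung libraries lay below both tail tip libraries, and the share of all genes with such an order was not counted. The cardiac pair stood at 1.82-fold the lung pair, while the 2 cardiac libraries differed 1.71-fold from each other. The order of cardiac above lung was not called (edgeR adjusted p = 0.14). A pseudogene, 4833418N17Rik, overlaps Bnc1 on the other strand in GENCODE M21, and the strand setting of the counting is not given, so reads of both may be mixed.

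Muc16 (ENSMUSG00000109564, chromosome 9) had 1 read in lung Ad-Cre cells, 1 in tail tip Ad-Cre cells and 0 in the other 4 libraries, which is within the limit of a count of 0. The lung Ad-Cre library, with the highest Msln level at 193 CPM, thus held 1 read of the mucin partner of mesothelin.

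**Figure D1:**
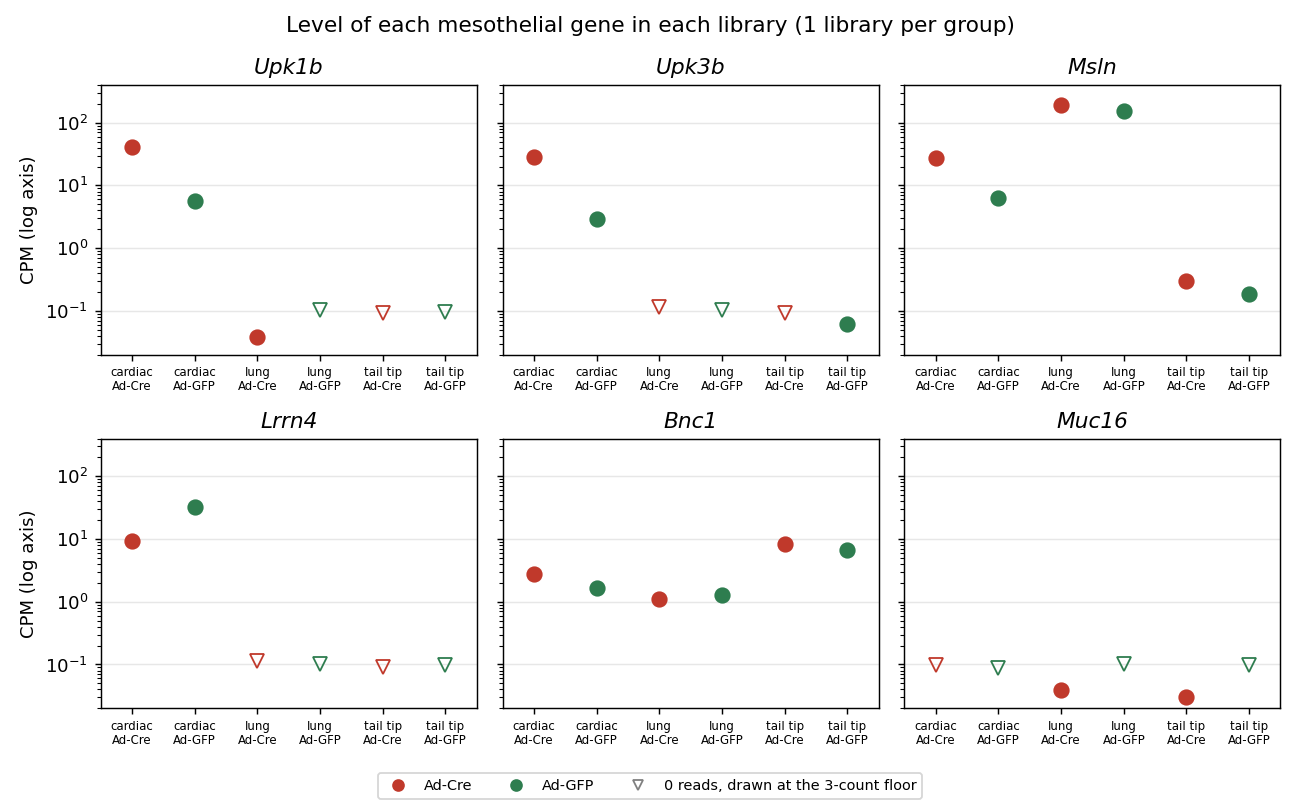
CPM (log axis) of each of the 6 mesothelial genes in each library, 1 point per library, red for Ad-Cre and green for Ad-GFP; open triangles mark 0 reads and are drawn at the level of 3 counts. Upk1b, Upk3b and Lrrn4 stand above 2 CPM in the cardiac libraries alone, Msln is highest in lung cells at 153 to 193 CPM, and Bnc1 is highest in tail tip cells.

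The cardiac pair is the contrast on which the members were chosen. Upk1b stood at 41.5 CPM in the library labelled Ad-Cre and 5.65 CPM in the Ad-GFP library, a ratio of 7.35 (95% interval 6.29 to 8.62). Upk3b stood at 28.7 CPM with Ad-Cre and 2.92 CPM with Ad-GFP (ratio 9.84, 7.96 to 12.3). For Msln the ratio was 4.29 (3.68 to 5.02). Lrrn4 went the opposite way, at 9.42 CPM with Ad-Cre and 32.2 CPM with Ad-GFP, a ratio of 0.293 (0.256 to 0.334). Bnc1 had 85 reads with Ad-Cre and 53 with Ad-GFP (ratio 1.71, 1.20 to 2.46), less than 2-fold.

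Of the 5 members that passed the filter, 3 were at least 2-fold higher in the cardiac Ad-Cre library and 1 was at least 2-fold lower, on the log2 scale with a prior count of 2. Among all tested genes 20.3% differed that much in the cardiac pair, 11.3% higher and 9.07% lower. The choice of members used these values, so their count says nothing beyond the choice. In bulk samples fewer cells of a type and less RNA per cell cannot be told apart.

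The balance between the members shifted with them. Upk1b had 4.41 reads for each Lrrn4 read in the cardiac Ad-Cre library and 0.176 in the Ad-GFP library, a 25.1-fold difference in which gene length cancels out. For Upk3b and Lrrn4 the same quotient was 3.05 with Ad-Cre and 0.0906 with Ad-GFP, a 33.6-fold difference. The 2 uroplakin genes kept closer together, with 1.45 Upk1b reads per Upk3b read with Ad-Cre and 1.94 with Ad-GFP. These quotients restate the opposite directions on which the members were chosen.

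The order of the members by level per length changed likewise. Per kilobase of merged exon (GENCODE M21), the cardiac Ad-Cre library held 19.9 CPM of Upk1b, 8.99 of Msln, 8.14 of Upk3b, 2.54 of Lrrn4 and 0.598 of Bnc1. In the cardiac Ad-GFP library Lrrn4 was first at 8.66 CPM per kilobase, before Upk1b at 2.71, Msln at 2.10, Upk3b at 0.827 and Bnc1 at 0.350. In lung cells Msln stood at 62.9 CPM per kilobase with Ad-Cre and 49.9 with Ad-GFP, the highest per-length level of any member in any library.

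In the other origins a ratio could be given for Msln and Bnc1. Msln had a ratio of 1.26 (1.21 to 1.31) in lung cells and 1.60 (0.527 to 5.36) in tail tip cells, where the interval includes equality. Bnc1 had a ratio of 0.837 (0.495 to 1.40) in lung cells and 1.24 (1.03 to 1.48) in tail tip cells. None of the 5 members that passed the filter was at least 2-fold higher or lower in either pair, against 7.69% of all tested genes in lung and 3.10% in tail tip cells, and 3 of the 5 had too few reads there to pass it. Those 3 were Upk1b, Upk3b and Lrrn4.

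**Figure D2:**
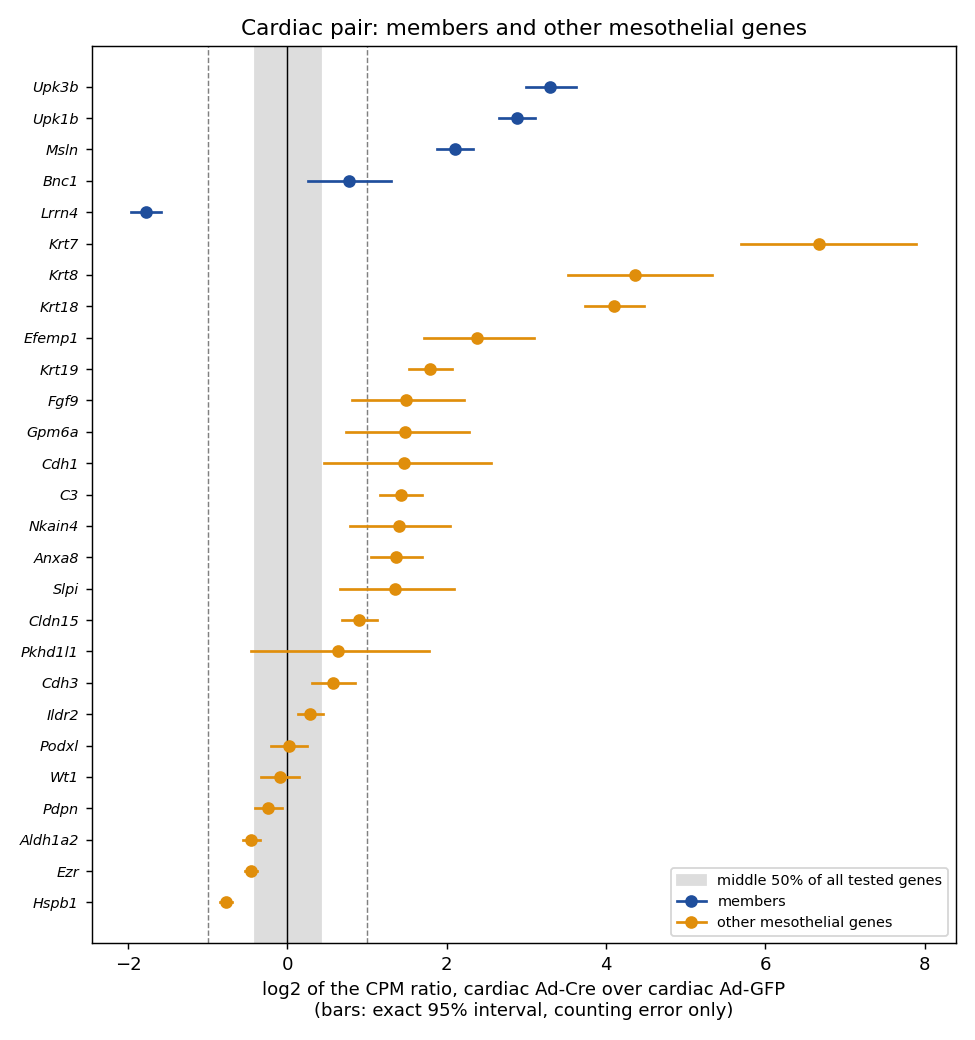
Log2 of the CPM ratio of cardiac Ad-Cre over cardiac Ad-GFP for the 5 members that passed the filter (blue) and the 22 other mesothelial genes that did (orange), with exact 95% intervals for counting error; the grey band holds the middle 50% of all tested genes and the dashed lines mark a 2-fold difference. Lrrn4 lies below the band at a ratio of 0.293 while Upk3b, Upk1b and Msln lie above it, and Wt1 lies within it.

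Other genes of the mesothelium were read from a list of 25, of which 22 passed the filter. In the cardiac pair 12 of these were at least 2-fold higher with Ad-Cre and 0 lower, with a median log2 ratio of 1.30, against 11.3% and 9.07% and a median of 0.00 for all tested genes. With 1 library per group this has no test, and the list was chosen with earlier results of these data known. Those higher included the keratins of simple epithelia. Krt7 had 768 reads with Ad-Cre and 8 with Ad-GFP (ratio 102, 51.6 to 238), and Krt18 had 1075 reads with Ad-Cre and 67 with Ad-GFP (ratio 17.1, 13.4 to 22.2). Krt19 stood at 16.3 CPM with Ad-Cre and 4.70 CPM with Ad-GFP, and Krt8 at 7.56 and 0.368 CPM with Ad-Cre and Ad-GFP.

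Outside the keratins, Gpm6a, a membrane glycoprotein gene, had 55 reads with Ad-Cre and 21 with Ad-GFP, and Fgf9, a growth factor gene of the embryonic mesothelium, had 66 reads with Ad-Cre and 25 with Ad-GFP. Efemp1, which encodes the matrix protein fibulin-3, had a ratio of 5.19 (3.29 to 8.52), and the complement gene C3 one of 2.68 (2.24 to 3.22). Other genes of the list did not move with the uroplakins. Wt1, the transcription factor gene that marks mesothelium and epicardium, stood at 8.83 CPM with Ad-Cre and 9.43 CPM with Ad-GFP (ratio 0.937, 0.793 to 1.11). Podxl, a sialomucin gene, had a ratio of 1.02 (0.869 to 1.18), and Aldh1a2, which makes retinoic acid, had one of 0.731 (0.679 to 0.787). Calb2, the calretinin gene, did not pass the filter, with 17 reads with Ad-Cre and 0 with Ad-GFP.

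In lung cells 5 of the 22 were at least 2-fold higher with Ad-Cre (Krt7, Krt8, Krt18, Cdh1 and Pkhd1l1) and 0 lower, against 4.87% and 2.82% of all tested genes. Krt7 had 82 reads with Ad-Cre and 1 with Ad-GFP in lung cells, and Krt8 had 52 reads with Ad-Cre and 5 with Ad-GFP. Cdh1 and Pkhd1l1 had at most 5 reads there. In tail tip cells 1 was higher (Pkhd1l1, 5 reads with Ad-Cre and 1 with Ad-GFP) and 1 lower (Krt18, 0 reads with Ad-Cre and 4 with Ad-GFP), against 1.53% and 1.58%.

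Between origins the same list was tested with edgeR over all genes, in 1 model of origin and virus over the 6 libraries. In cardiac against lung cells 14 of the 22 rose, 3 fell and 5 did not pass, where 38.4% of all tested genes were called, 20.8% higher and 17.6% lower. Leaving out the lung Ad-Cre library left 1 that fell. In cardiac against tail tip cells 12 rose, 6 fell and 4 did not pass, where 33.5% of all tested genes were called, 15.5% higher and 18.0% lower. In lung against tail tip cells 4 rose (Ildr2, Podxl, Krt19 and Ezr), 10 fell and 8 did not pass, where 50.6% of all tested genes were called, 22.3% higher and 28.2% lower. Leaving out the cardiac Ad-Cre, the cardiac Ad-GFP or the tail tip Ad-GFP library gave 7 that rose there. A gene that passed the filter through 1 origin alone had to differ, so these counts are a description of the list.

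Wt1 had 270 reads in cardiac Ad-Cre and 307 in cardiac Ad-GFP cells against 0 to 4 elsewhere. It passed the filter through the cardiac libraries alone, so it had to differ between origins. Wt1 and Msln were thus highest in different origins. Anxa8, an annexin gene, was lower in cardiac than in tail tip cells by a log2 fold change of -5.97 (SE 0.32, edgeR adjusted p = 3.5e-05), with 12721 reads in tail tip Ad-Cre and 10787 in tail tip Ad-GFP cells. Pdpn, the podoplanin gene, stood at 16.3 and 19.3 CPM in cardiac Ad-Cre and Ad-GFP cells, at 71.0 and 97.3 CPM in lung Ad-Cre and Ad-GFP cells and at 249 and 212 CPM in tail tip Ad-Cre and Ad-GFP cells. Ezr, which links the membrane to actin, was higher in lung than in tail tip cells by 2.35 (SE 0.21, edgeR adjusted p = 0.00013).

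Of 12 listed relatives of the members, 11 were in the table and 7 passed the filter. In the cardiac pair 1 of these (Lrrn3) was at least 2-fold higher with Ad-Cre and 3 (Lrrn2, Mslnl and Muc1) were lower, beside 11.3% and 9.07% of all tested genes, with a median log2 ratio of -0.32. Mslnl had only 5 reads with Ad-Cre and 13 with Ad-GFP, and its interval (0.114 to 1.225) includes equality. Muc1 had 3 reads with Ad-Cre and 24 with Ad-GFP. Lrrn2, a relative of Lrrn4, had 139 reads with Ad-Cre and 364 with Ad-GFP (ratio 0.407, 0.332 to 0.496), and 4 or 5 reads in each lung and tail tip library. Lrrn3 stood at 2.13 CPM with Ad-Cre and 1.01 CPM with Ad-GFP. Bnc2, the relative of Bnc1, had a ratio of 0.799 (0.619 to 1.03) in the cardiac pair and fell in cardiac against lung cells by 2.72 on the log2 scale (SE 0.22, edgeR adjusted p = 0.00014). Among uroplakin genes of the bladder lining, Upk2 and Upk3a had at most 1 read in any library. Upk1a passed the filter, with 29 reads in cardiac Ad-Cre and 23 in cardiac Ad-GFP cells and 12 to 29 reads in the lung and tail tip libraries.

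The genes nearest to each member were found by the distance between centred log2 CPM profiles over the 6 libraries, among 12881 genes. This distance includes the cardiac difference that chose the members and is a description. Upk1b and Upk3b were each other's nearest gene, at a distance of 1.53 log2 units. The gene nearest to Lrrn4 was Tcf21, a transcription factor gene of the epicardium and its fibroblast descendants, at a distance of 0.22. Tcf21 had 338 reads with Ad-Cre and 1148 with Ad-GFP in cardiac cells and 0 in the other 4 libraries, and its cardiac ratio was 0.314 (0.277 to 0.354) beside 0.293 (0.256 to 0.334) for Lrrn4. Next to Lrrn4 came Tnfsf18, a cytokine gene, at 1.21, with 445 reads in cardiac Ad-Cre and 1508 in cardiac Ad-GFP cells.

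Among the 5 genes nearest to Msln was Prdm6, a gene of the PRDM family of transcriptional regulators. Prdm6 had 80 reads in cardiac Ad-Cre and 110 in cardiac Ad-GFP cells, 637 in lung Ad-Cre and 555 in lung Ad-GFP cells, and 0 in both tail tip libraries. The gene nearest to Bnc1 was Insig2, a regulator of sterol synthesis, at 0.29, with 91.5 CPM in tail tip Ad-Cre and 81.8 CPM in tail tip Ad-GFP cells. No gene of the mesothelial list was among the 5 nearest to Msln, Lrrn4 or Bnc1.

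Of 8 epicardial genes, all tested, 0 were at least 2-fold higher in the cardiac Ad-Cre library and 2 were lower, Tcf21 and Gata6, beside 11.3% and 9.07% of all tested genes. Gata6, a GATA factor gene, stood at 43.0 CPM with Ad-Cre and 86.5 CPM with Ad-GFP. Between origins 7 of the 8 rose in cardiac against lung cells and 7 rose in cardiac against tail tip cells, beside 20.8% and 15.5% of all tested genes. Some of these, such as Tcf21, passed the filter through cardiac cells alone and had to differ. Highest was Tbx20, a T-box factor gene, with 406 CPM in cardiac Ad-Cre and 661 CPM in cardiac Ad-GFP cells and at most 6.19 CPM elsewhere. Scx, a tendon factor gene, did not pass against lung cells and fell against tail tip cells.

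Among 20 cell junction genes 13 passed the filter. In the cardiac pair 3 of these (Dsp, Pkp3 and Cldn1) were at least 2-fold higher with Ad-Cre and 0 lower, beside 11.3% and 9.07% of all tested genes. Dsp, the desmoplakin gene, stood at 57.5 CPM with Ad-Cre and 6.60 CPM with Ad-GFP, a ratio of 8.71 (7.55 to 10.1), close in size to that of the uroplakins. Jup and Pkp1, which encode partners of desmoplakin in the desmosome, had ratios of 0.758 (0.727 to 0.790) and 0.735 (0.698 to 0.774).

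Of 14 genes of the mesothelial to mesenchymal transition, all tested, 0 were at least 2-fold higher in the cardiac Ad-Cre library and 1, Cdh2, was lower, beside 11.3% and 9.07% of all tested genes. Cdh2, the N-cadherin gene, stood at 339 CPM with Ad-Cre and 788 CPM with Ad-GFP. Vim, the vimentin gene, had a ratio of 0.533 (0.529 to 0.537), Snai1 one of 0.793 and Zeb1 one of 1.33. Among 10 genes of the Hippo pathway and its targets, Tead4 was at least 2-fold higher and Ankrd1, Ccn2 and Tead2 were lower, beside the same 11.3% and 9.07%. Tead4, a TEAD factor gene, stood at 21.3 CPM with Ad-Cre and 8.51 CPM with Ad-GFP, and Ccn2 at 1103 and 2290 CPM with Ad-Cre and Ad-GFP.

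Markers of the labelled cell type and of others were summed in each library. The 6 fibroblast markers were all read in every library, with sums of 10405 CPM in cardiac Ad-Cre and 15015 CPM in cardiac Ad-GFP cells, and between 4417 and 12972 CPM elsewhere. Col1a1 and Col1a2 made up most of each sum. In cardiac cells Pdgfra was higher with Ad-Cre (408 CPM) than with Ad-GFP (268 CPM), while Col1a1, Col1a2, Dcn, Lum and Thy1 were lower. The 8 mesothelial markers were the 6 members with Wt1 and Krt19. They summed to 135 CPM in cardiac Ad-Cre and 62.9 CPM in cardiac Ad-GFP cells. In lung cells the sums were 196 CPM with Ad-Cre and 156 CPM with Ad-GFP, and Msln made up nearly all of each. In tail tip cells they were 9.33 and 7.42 CPM with Ad-Cre and Ad-GFP. The cardiac difference of this sum restates values on which the members were chosen. It also covers Lrrn4, which was lower with Ad-Cre, and Wt1, whose interval included equality.

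Some other markers differed in the cardiac pair beside the members. The 6 markers of keratinocytes and surface epithelium summed to 3.63 CPM with Ad-Cre (5 of 6 with a read) and 0.461 CPM with Ad-GFP (3 of 6), with Trp63 at 0 reads in both. The 4 urothelial markers summed to 1.47 CPM with Ad-Cre and 1.01 CPM with Ad-GFP, with Upk2 and Upk3a at 0 in both. The 5 endothelial markers summed to 15.1 CPM with Ad-Cre and 9.80 CPM with Ad-GFP, all with a read. Kdr was higher with Ad-Cre (336 reads, against 137 with Ad-GFP), while Pecam1 had 63 reads with Ad-Cre and 84 with Ad-GFP and Cdh5 had 45 with Ad-Cre and 79 with Ad-GFP. The 6 macrophage markers summed to 113 CPM with Ad-Cre and 169 CPM with Ad-GFP, all with a read, and the 5 cardiomyocyte markers to 53.7 and 76.2 CPM with Ad-Cre and Ad-GFP, mostly from Tnnt2, while Myh6 had 24 reads with Ad-Cre and 0 with Ad-GFP. Smooth muscle and pericyte markers summed to 227 CPM with Ad-Cre and 265 CPM with Ad-GFP, mostly from Cspg4. Of these, Des had 570 reads with Ad-Cre and 185 with Ad-GFP, and Rgs5 had 27 with Ad-Cre and 0 with Ad-GFP. Cspg4, Cnn1 and Myh11 were lower with Ad-Cre. Lung epithelial markers summed to at most 0.720 CPM in any library, with Nkx2-1 at 0 in all. The part of these cells in the members' differences was not tested.

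**Figure D3:**
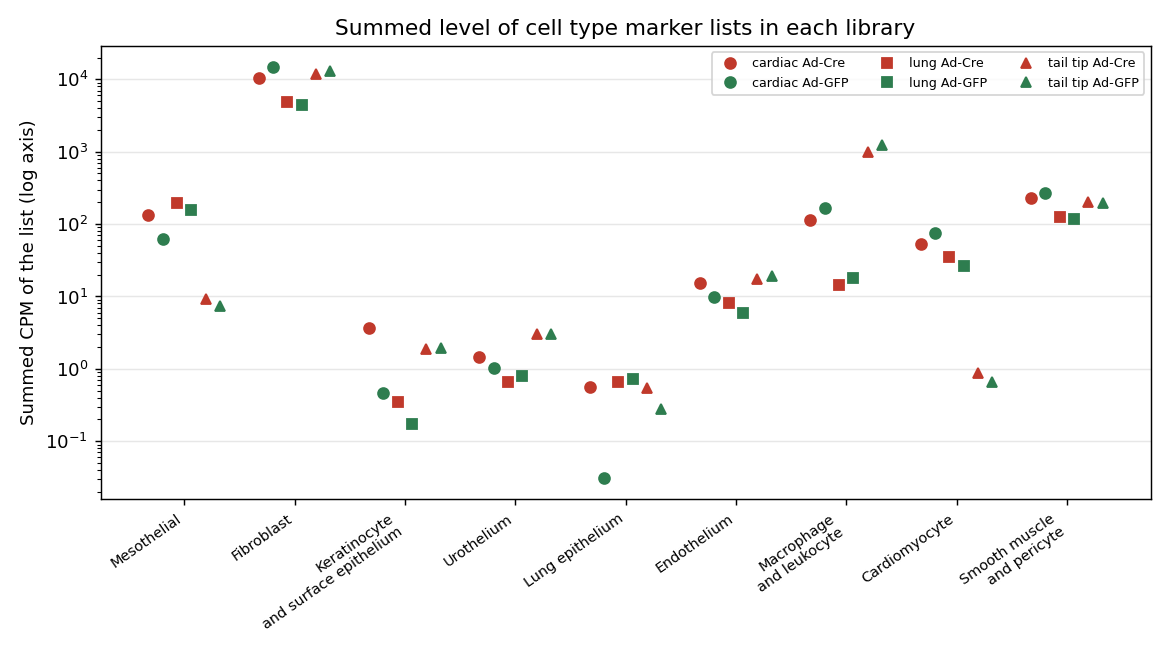
Summed CPM (log axis) of 9 cell type marker lists in each library, with the origin by shape and the virus by colour. The mesothelial markers are the 6 members with Wt1 and Krt19, so their cardiac sums hold values on which the members were chosen. Mesothelial markers reach 196 CPM in lung and 135 CPM in cardiac Ad-Cre cells and stay under 10 CPM in tail tip cells. Markers of surface epithelium are higher in cardiac Ad-Cre (3.63 CPM) than in cardiac Ad-GFP cells (0.461 CPM).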

How the data were processed

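The authors deposited raw counts, whole numbers for each Ensembl identifier, for 6 libraries of 26170316 to 33779069 counts. Per the submitters' processing notes, the mm39 build and STAR 2.0.7 were used, with no role given. Which counting tool, annotation and strand setting were used is not given in the sources used here. The labels tie the columns to a matrix under another title, so columns were matched by name. Symbols came from a GRCm38 annotation, which matched 51884 of 57180 identifiers and each of the 6 members once.

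Tests across genes used edgeR 4.0.16 (R 4.3.3): filterByExpr (minimum count 10) left 18143, TMM scaling, and robust quasi-likelihood F-tests in 1 additive model of origin and virus with 2 residual degrees of freedom. Benjamini-Hochberg adjustment ran over all genes (threshold 0.05, two-sided), and SE is the log2 fold change over the root of F. Nothing says that libraries of an origin came from separate animals, so p-values measure only the spread between these libraries. In counts simulated from these libraries, false calls were clearly more frequent than the threshold allows, so the adjusted p-values may be too small and the called shares too high. The simulation changed a small set of genes in lung cells alone, so it does not measure the excess in the comparisons given here. Within an origin no test was made: CPM ratios have exact conditional binomial 95% intervals, and 2-fold counts use a prior count of 2. Alternatives were DESeq2 1.42.0, its size factors, library totals, no filter, a prior count of 0.5, no virus term and leaving out each library.

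The members and lists were chosen with earlier results of these data known. Named are all members, list genes at least 2-fold apart in the cardiac pair with at least 50 reads, the highest list genes called between origins and the 5 genes nearest to each member; others are named as contrasts, chosen after their values were seen, and not every gene taken is printed.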

Additional observations from a re-analysis of the deposited data

Results flagged for a closer look

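With 1 library per group, none of the differences between origins below was tested. All values are log2 ratios of Ad-Cre over Ad-GFP. Among the members, Bnc1 stood at 0.75 in cardiac, -0.24 in lung and 0.30 in tail tip cells, and the lung interval includes equality. Of 74 tested list genes that are no member, 23 had opposite directions in at least 1 pair of origins with at least 10 reads each and counting intervals that both exclude equality, and 14 of these are given here. The share of all tested genes that meet this rule was not counted, so the 23 are a description of the lists. Counting intervals are narrow for genes with many reads, so small ratios can meet the rule.

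In the mesothelial list, C3 stood at 1.41 in cardiac and -0.34 in tail tip cells, Ezr at -0.46 in cardiac, 0.31 in lung and -0.17 in tail tip cells, and Pdpn at -0.24 in cardiac, -0.45 in lung and 0.23 in tail tip cells. Among epicardial genes, Gata6 stood at -1.01 in cardiac and 0.60 in lung cells, and Aldh1a1 at -0.57 in cardiac and 0.55 in tail tip cells. Among junction genes, Cldn1 stood at 2.03 in cardiac and -0.86 in lung cells, Pkp1 at -0.44 in cardiac and 2.87 in lung cells, and Jup at -0.40 in cardiac, 0.52 in lung and 0.22 in tail tip cells. The Cldn1 value in cardiac cells rests on 10 reads with Ad-Cre and 1 with Ad-GFP. The Pkp1 value in lung cells rests on 17 reads with Ad-Cre and 1 with Ad-GFP.

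Among transition genes, Vim stood at -0.91 in cardiac, 0.15 in lung and 0.031 in tail tip cells, Snai1 at -0.34 in cardiac and 0.27 in lung cells, and Acta2 at -0.40 in cardiac, -0.046 in lung and 0.049 in tail tip cells. Among Hippo genes, Ankrd1 stood at -1.10 in cardiac, -0.18 in lung and 0.59 in tail tip cells, Amotl2 at -0.59 in cardiac, 0.38 in lung and 0.17 in tail tip cells, and Ccn1 at -0.63 in cardiac, 0.065 in lung and 0.046 in tail tip cells.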

How the results depend on the processing

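The log2 ratios of members with at least 10 reads in a pair stayed within their counting intervals under every alternative run. These alternatives were library totals, DESeq2 size factors, no filter and a prior count of 0.5. The check covered Msln and Bnc1 in each origin, and Upk1b, Upk3b and Lrrn4 in cardiac cells alone. In the cardiac pair 4 members stayed past 2-fold. With a prior count of 0.5, 1 member passed 2-fold in the lung pair (Upk1b, 1 read) and 1 in the tail tip pair (Upk3b, 2 reads), and 965 genes instead of 563 did so in the tail tip pair. With no filter, 8833 genes in the cardiac, 4763 in the lung and 2293 in the tail tip pair were past 2-fold, with low genes added. In lung against tail tip cells Msln (log2 fold change 8.90 to 10.45) and Bnc1 (-3.05 to -2.28) stayed called under all alternatives, including each library left out. Leaving out a library gave 3110 to 9205 genes called in cardiac against tail tip cells (6077 with all 6), where without cardiac Ad-Cre it was 9205, without tail tip Ad-Cre 3338 and without tail tip Ad-GFP 3110. It gave 5995 to 12560 in lung against tail tip cells (9175 with all 6; 5995 without tail tip Ad-GFP). The other mesothelial genes called lower in cardiac against lung cells were 1 to 4, and those called higher in lung against tail tip cells 4 to 7. The causes were not tested. The model pairs the 2 viruses within each origin, since origin is one of its terms, and its virus term is not given here. The replicate number, the same in all groups, allowed no further pairing. Depth limits Muc16 and the cardiac genes elsewhere, at up to 3 counts.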
